A study of Homo sapiens with 2 samples.

Results

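The 10 genes described here were chosen by name from 22595 gene symbols covered by RNA sequencing of 786-O, a cell line established from a human clear cell renal carcinoma. They comprise 7 members of the SLC2A family (SLC2A1, SLC2A3, SLC2A6, SLC2A8, SLC2A10, SLC2A12 and SLC2A13) and 3 hexokinase genes (HK1, HK2 and HKDC1), and the row of each was found by its symbol. The study held 2 libraries of total RNA, 1 from cells in medium with 0 mM glucose and 1 from cells in medium with 25 mM glucose, to profile the response to glucose starvation. The line is known to lack working VHL, part of the ubiquitin ligase that targets hypoxia-inducible factors for destruction. The titles name no change to VHL in either culture, and its status was not checked here. The labels do not state how long the cells were without glucose, and each library carries a further short code of unstated meaning. With 1 library per group there were no replicates and no test was possible, so higher and lower refer to these libraries and not to the conditions.

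The SLC2A genes encode the GLUT proteins, membrane carriers that let glucose and related sugars cross down their gradient. Hexokinases then add a phosphate, which traps the sugar in the cell as glucose 6-phosphate, the entry point of glycolysis, the pentose phosphate route and the hexosamine route. SLC2A1 and HK2 are textbook targets of hypoxia-inducible factors, and so are LDHA and PGK1 of later glycolysis. These targets differed in direction here. The log2 ratio without over with glucose was 1.62 for SLC2A1, 1.79 for HK2, -1.30 for LDHA and -0.49 for PGK1. The part of these factors in any of the ratios was not tested. Renal carcinomas without VHL are known for high glucose uptake. The name of the group is not exact for every member, since SLC2A13 encodes HMIT, a proton-coupled carrier of myo-inositol.

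Promoter windows of RefSeq (build GRCh38.p14, 250 bases before to 50 after each annotated start) were present for 9 of the 10 genes, in 16 windows, but not for SLC2A3. They were matched by symbol alone, so a window may not be the promoter of the counted transcript. In a second annotation, GENCODE, the nearest start of a counted transcript lay 308 bases from the SLC2A1 start. For HK2 it lay 146 bases from the upstream and 1189 from the downstream start. The windows of the 3 genes that were higher without glucose and had one (HK2, with 2 starts, SLC2A1 and HKDC1) and of the gene that was lower (SLC2A12) are shown, so that the opposed genes can be compared. Capitals mark ACGTG or GCGTG on either strand, the core letters of the hypoxia response element.
SLC2A1, minus strand, chr1:42958819-42959118: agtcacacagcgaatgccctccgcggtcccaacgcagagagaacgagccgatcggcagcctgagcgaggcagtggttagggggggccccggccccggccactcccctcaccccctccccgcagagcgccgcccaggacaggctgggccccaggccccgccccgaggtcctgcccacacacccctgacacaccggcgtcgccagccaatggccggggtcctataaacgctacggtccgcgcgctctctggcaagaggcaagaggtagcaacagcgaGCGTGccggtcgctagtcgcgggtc
HK2, upstream start, plus strand, chr2:74833877-74834176: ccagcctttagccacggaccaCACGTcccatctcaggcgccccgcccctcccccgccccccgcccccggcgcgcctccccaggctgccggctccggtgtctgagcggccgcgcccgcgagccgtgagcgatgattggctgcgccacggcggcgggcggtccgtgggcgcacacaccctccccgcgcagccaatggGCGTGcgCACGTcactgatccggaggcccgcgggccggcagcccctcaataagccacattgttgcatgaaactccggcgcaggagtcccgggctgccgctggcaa
HK2, downstream start, plus strand, chr2:74834920-74835219: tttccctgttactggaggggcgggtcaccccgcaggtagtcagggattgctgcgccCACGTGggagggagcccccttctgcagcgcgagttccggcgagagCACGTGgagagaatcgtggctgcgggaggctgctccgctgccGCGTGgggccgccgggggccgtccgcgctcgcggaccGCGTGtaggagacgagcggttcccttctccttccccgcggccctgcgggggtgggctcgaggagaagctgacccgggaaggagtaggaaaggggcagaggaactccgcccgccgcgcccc
HKDC1, plus strand, chr10:69220082-69220381: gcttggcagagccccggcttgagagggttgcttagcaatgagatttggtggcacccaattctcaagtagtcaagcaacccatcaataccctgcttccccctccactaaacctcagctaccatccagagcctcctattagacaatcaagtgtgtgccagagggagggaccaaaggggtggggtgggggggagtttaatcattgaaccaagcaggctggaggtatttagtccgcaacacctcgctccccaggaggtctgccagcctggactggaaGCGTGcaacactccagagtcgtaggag
SLC2A12, minus strand, chr6:134052575-134052874: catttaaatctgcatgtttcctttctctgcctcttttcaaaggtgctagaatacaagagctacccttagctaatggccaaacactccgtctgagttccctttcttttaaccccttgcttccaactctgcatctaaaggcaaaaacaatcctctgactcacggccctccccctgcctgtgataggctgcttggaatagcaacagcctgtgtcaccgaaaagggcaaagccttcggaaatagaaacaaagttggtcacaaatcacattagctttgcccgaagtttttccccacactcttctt

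The core letters occurred 3 times in the upstream window of HK2, 6 times in its downstream window, 1 time each in the windows of SLC2A1 and HKDC1, and 0 times in that of SLC2A12. Among the genes within 2-fold they occurred 3 times each in the windows of SLC2A6 and SLC2A13 and 0 times in that of SLC2A8. They occurred 1 time in the window of SLC2A10 and in 2 of the 7 HK1 windows. Windows of 300 bases miss sites farther away, and whether the matches bear on the ratios was not tested. A CACGTG counts as 2 of these, since it holds ACGTG on both strands, and the downstream HK2 window holds 2 such sites. ACGTG or GCGTG on either strand was present in 48.4% of all 35116 windows of the table and in 9 of the 16 windows of these genes. The windows also differed in base composition. G and C made up 71.0% of the SLC2A1 window, 74.3% and 71.7% of the upstream and downstream HK2 windows, 55.3% of the HKDC1 window and 45.7% of the SLC2A12 window, against a median of 58.7% over the table. CACGTG, the E-box, was found in windows of HK2 and SLC2A13 and in 7.26% of all windows. TGATGNAA, the core of the element bound by ATF4 with a C/EBP partner, was found in windows of HK1 alone (2 overlapping windows, both around the same letters) and in 3.62% of all windows. The ER stress response element (searched in full, on both strands, and present in 0.0769% of all windows) and the XBP1 element TGACGTGG (0.729%, and also containing ACGTG) were found in 0 of the 16 windows. GGGCGG, the GC box, was found in 10 of the 16 and in 45% of all windows. These are matches of letters on both strands, not measured binding sites.

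The library without glucose held 31345853 counts and the library with glucose 27317598, and genes with symbols of snoRNAs, scaRNAs, small nuclear RNAs and microRNAs took 8.02% of the counts without and 5.86% with glucose. Levels are given as CPM, counts per 1e6 of the library size after TMM scaling, or, to compare genes with each other, as RPKM, the same value per kilobase of gene model. A gene was counted as higher or lower when the exact 95% interval of its ratio lay wholly beyond 2-fold, an interval that covers counting error only. Of 10 renal carcinoma markers 9 were measured, and they differed in direction. PAX8, a transcription factor of the kidney lineage, stood at 232 CPM without glucose and 244 CPM with glucose. The keratin genes KRT8 and KRT18 had 118 and 137 CPM without glucose and 134 and 151 CPM with glucose, and NNMT had 175 CPM against 219 CPM. EPAS1, which encodes the hypoxia-inducible factor subunit HIF-2alpha, was at 422 CPM without glucose and 134 CPM with glucose, and VIM, the gene of vimentin, at 5791 CPM against 4336 CPM. CDH6, a cadherin of the renal tubule, stood at 8.36 CPM without glucose and 192 CPM with glucose, LHX1 at 3.38 CPM against 19.5 CPM and PAX2 at 1.20 CPM against 2.41 CPM, while CA9 had 0 counts and 4 counts. Markers of 5 other cell types (leukocyte, endothelial, red cell, muscle and neuron, 17 genes) summed to 3.45 CPM without glucose and 6.15 CPM with glucose, and 17 and 15 of them were under 1 CPM. In such bulk RNA, fewer cells that express a gene and less of its RNA per cell cannot be told apart. The part of these differences in the ratios below was not tested.

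In the library without glucose, 4 of the 10 genes were higher by the rule of size, namely HK2 (3.45-fold), SLC2A1 (3.08-fold), HKDC1 (2.67-fold) and SLC2A3 (2.63-fold). SLC2A12 was lower, by 9.21-fold, and HK1, SLC2A6, SLC2A8, SLC2A10 and SLC2A13 lay within 2-fold. All 10 passed the minimum of 20 counts over both libraries. The share counted as higher was 40% of these genes, beside 3.75% of all 14240 measured genes, and the share counted as lower was 10%, beside 6.20% of all measured genes. With the bound at 1.5-fold the same numbers of the 10 passed, beside 10.2% and 12.6% of all measured genes, and with the bound at 3-fold 2 were higher and 1 lower, beside 1.40% and 2.15%. The median log2 ratio of the 10 was 0.37, against 0.01 over all measured genes. It lay among the genes within 2-fold, between SLC2A10 at 0.34 and SLC2A8 at 0.39. The genes were chosen with results of these libraries known, so the counts describe them and no more.

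**Figure D1:**
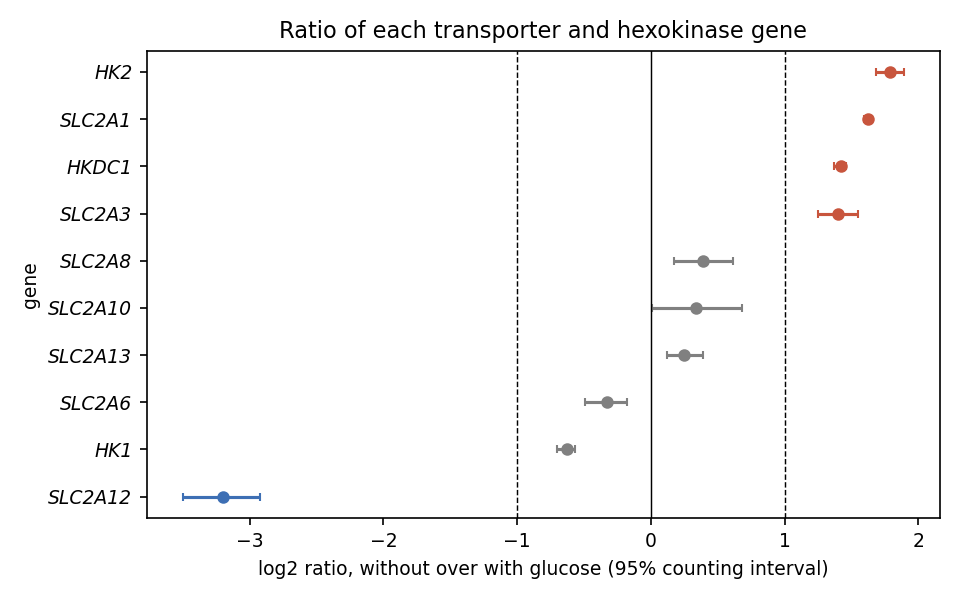
Log2 ratio of each gene, without over with glucose (x axis), with its exact 95% counting interval as a bar, and dashed lines at 2-fold. HK2, SLC2A1, HKDC1 and SLC2A3 (red) lie wholly beyond 2-fold on the higher side and SLC2A12 (blue) on the lower side, with the other 5 genes (grey) between the lines.

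SLC2A1 encodes GLUT1, the widespread basal glucose carrier of the plasma membrane. In hg19, the build of the tables, its 10 exons span chr1:43391046-43424847 on the minus strand. SLC2A1 had 36752 counts without glucose and 10813 with glucose, or 1195 CPM against 388 CPM. The library without glucose was the higher one by a log2 ratio of 1.62 (95% counting interval 1.59 to 1.65), the 373rd highest of all measured genes. Per length, SLC2A1 stood at 327 RPKM without glucose and 106 RPKM with glucose, which placed it 322nd and 723rd among the measured genes. All 10 exons had over 10 reads in both libraries. The divergent noncoding transcript SLC2A1-DT (FLJ32224 in the tables) starts on the other strand and overlaps the SLC2A1 gene model by 128 bases. It had 195 counts without glucose and 92 with glucose, a log2 ratio of 0.94 (interval 0.58 to 1.31), so that it had far fewer reads than SLC2A1 in both libraries. Whether counting used strand is not stated, and reads in the shared bases cannot be assigned.

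SLC2A3 encodes GLUT3, a carrier with high affinity for glucose that is best known from neurons. Its gene model covers chr12:8071824-8088892 on the minus strand. It had 1422 counts without glucose and 489 with glucose, at 46.3 CPM against 17.6 CPM, a log2 ratio of 1.40 (interval 1.25 to 1.55). GLUT3 has a near-identical paralog, SLC2A14, on the same chromosome, and how the authors' counting shared reads between them is not known. SLC2A14 had 2 counts in each library. The level of SLC2A3 therefore hardly depends on whether the SLC2A14 counts are added to it, while reads dropped for matching both genes cannot be seen in the tables. The log2 ratio of SLC2A3 was below that of SLC2A1 by a little more than counting error (difference -0.23, interval -0.38 to -0.07).

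SLC2A12 encodes GLUT12, a hexose carrier of the same family, and moved the other way. Its gene model covers chr6:134308719-134373789 on the minus strand. It had 112 counts without glucose and 934 with glucose, at 3.64 CPM against 33.5 CPM. The log2 ratio was -3.20 (interval -3.50 to -2.92), the 72nd lowest of the 14240 measured genes. Of its 5 exons, 2 had over 10 reads without glucose and 5 with glucose, a number that falls with the total count and does not show how the reads were spread. The log2 ratios of SLC2A1 and SLC2A12 differed by 4.82 (interval 4.54 to 5.11), a difference that does not depend on the scaling between libraries.

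The other 4 SLC2A genes lay within 2-fold. SLC2A6, which encodes GLUT6, a carrier of lysosomal membranes, had 617 counts without glucose and 705 with glucose (chr9:136336216-136344276), a log2 ratio of -0.33 (interval -0.49 to -0.18). SLC2A8 encodes GLUT8, which is also found mainly on internal membranes, and had 419 counts against 290 (chr9:130159465-130170165), a log2 ratio of 0.39 (interval 0.17 to 0.61). The inositol carrier gene SLC2A13 had 1005 counts against 764 (chr12:40148823-40499661), a log2 ratio of 0.25 (interval 0.12 to 0.39). SLC2A10 encodes GLUT10, whose loss causes arterial tortuosity syndrome in humans, and was the least covered at 185 counts against 132 (chr20:45338279-45364985). Its log2 ratio of 0.34 had an interval of 0.01 to 0.68, with its lower end close to no difference. Of its 5 exons, 2 had over 10 reads in each library.

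HK2 encodes hexokinase 2, the inducible isoform of muscle, fat and many tumours, which binds the outer mitochondrial membrane. The gene model covers chr2:75059782-75120481 on the plus strand. HK2 had 3702 counts without glucose and 973 with glucose, at 120.4 CPM against 34.9 CPM. The log2 ratio was 1.79 (interval 1.68 to 1.89), the highest of the 10 genes and 309th of all measured genes. Its excess over the ratio of SLC2A1 was small (difference 0.16, interval 0.06 to 0.27). Of its 18 exons, 18 had over 10 reads without glucose and 16 with glucose.

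HK1 encodes hexokinase 1, the constitutive isoform of most tissues. Its model, at chr10:71029756-71161637 on the plus strand, joins 25 exons of several transcripts. There were 3283 counts of HK1 without glucose and 4613 with glucose, at 107 CPM against 166 CPM, a log2 ratio of -0.63 (interval -0.70 to -0.57). HK1 was thus 1.55-fold lower, within the 2-fold bound but beyond counting error. The log2 ratios of HK2 and HK1 differed by 2.42 (interval 2.30 to 2.54), again without regard to scaling.

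HKDC1, hexokinase domain containing 1, is a further member of the family, less studied and with weak glucose phosphorylation reported for its product. The gene lies directly upstream of HK1 on the same strand, at chr10:70980059-71027315, and 2440 bases separate the end of one gene model from the start of the other. HKDC1 had 15826 counts without glucose and 5362 with glucose, at 515 CPM against 193 CPM, a log2 ratio of 1.42 (interval 1.37 to 1.46). All 18 exons had over 10 reads in both libraries. The neighbouring genes therefore differed in direction, with log2 ratios 2.05 apart (interval 1.97 to 2.13).

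**Figure D2:**
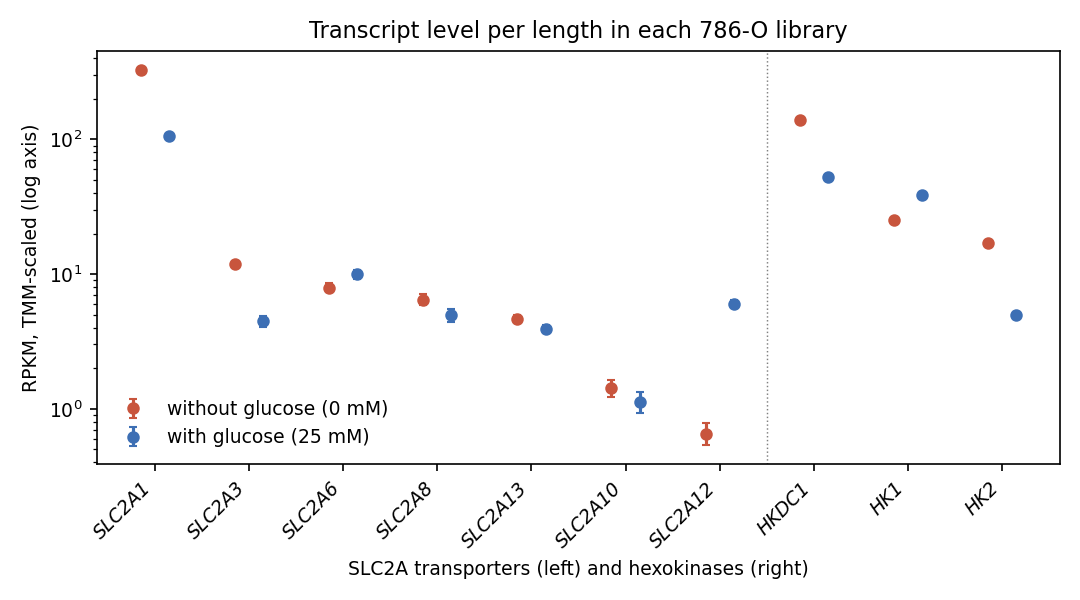
RPKM after TMM scaling (log y axis) of each gene in the library without glucose (red, left of each pair) and with glucose (blue, right), with exact 95% Poisson counting intervals as bars, most of them smaller than the points. SLC2A1 is highest in both libraries (327 and 106 RPKM), HKDC1 is the highest hexokinase gene (140.2 and 52.4 RPKM), and SLC2A12 is the lowest gene without glucose (0.651 RPKM).

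Per length, the order of the genes changed between the libraries below the top 3 places. Without glucose the order from the top was SLC2A1, HKDC1, HK1, HK2, SLC2A3, SLC2A6, SLC2A8, SLC2A13, SLC2A10 and SLC2A12, and the counting intervals of neighbours in this order did not overlap. The level was 25.0 RPKM for HK1, 17.0 RPKM for HK2 and 11.8 RPKM for SLC2A3, while SLC2A6, SLC2A8 and SLC2A13 lay between 4.67 and 7.91 RPKM. SLC2A10 followed at 1.42 RPKM and SLC2A12 at 0.651 RPKM. With glucose SLC2A1, HKDC1 and HK1 again led, HK1 at 38.8 RPKM, followed by SLC2A6 at 9.98 RPKM and SLC2A12 at 5.99 RPKM. Next came HK2, SLC2A8, SLC2A3 and SLC2A13, at 3.92 to 4.94 RPKM, where the interval of each overlapped that of the next. SLC2A10 was last with glucose, at 1.12 RPKM. A gene model that joins exons from many transcripts, as for HK1, can understate the level per length of the transcript in use.

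Within the 7 transporter genes, the summed level was 359.5 RPKM without glucose and 137 RPKM with glucose, 2.63-fold higher without. SLC2A1 made up 90.8% of this sum without glucose (95% counting interval 90.5 to 91.1%) and 77.7% with glucose (77.0 to 78.4%). The share of SLC2A3 was nearly the same in both libraries, 3.28% without glucose and 3.27% with glucose. SLC2A12 made up 0.181% without glucose and 4.39% with glucose, and SLC2A6 2.20% without and 7.31% with glucose. Set against SLC2A1 alone, SLC2A3 took 3.48% of the pair without glucose (interval 3.30 to 3.66%) and 4.04% with glucose (3.70 to 4.41%).

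Among the 3 hexokinase genes, the summed level was 182 RPKM without glucose and 96.2 RPKM with glucose, 1.89-fold higher without. HKDC1 supplied 76.9% of it without glucose (interval 76.4 to 77.4%) and 54.5% with glucose (53.6 to 55.4%). HK1 supplied 13.7% without glucose and 40.4% with glucose, and HK2 9.34% without and 5.13% with glucose. Between HK2 and HK1 alone, HK2 took 40.5% of the pair without glucose (interval 39.3 to 41.6%) and 11.3% with glucose (10.6 to 12%). Transcript levels alone were measured, and the amounts or activities of the proteins are not known from them.

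**Figure D3:**
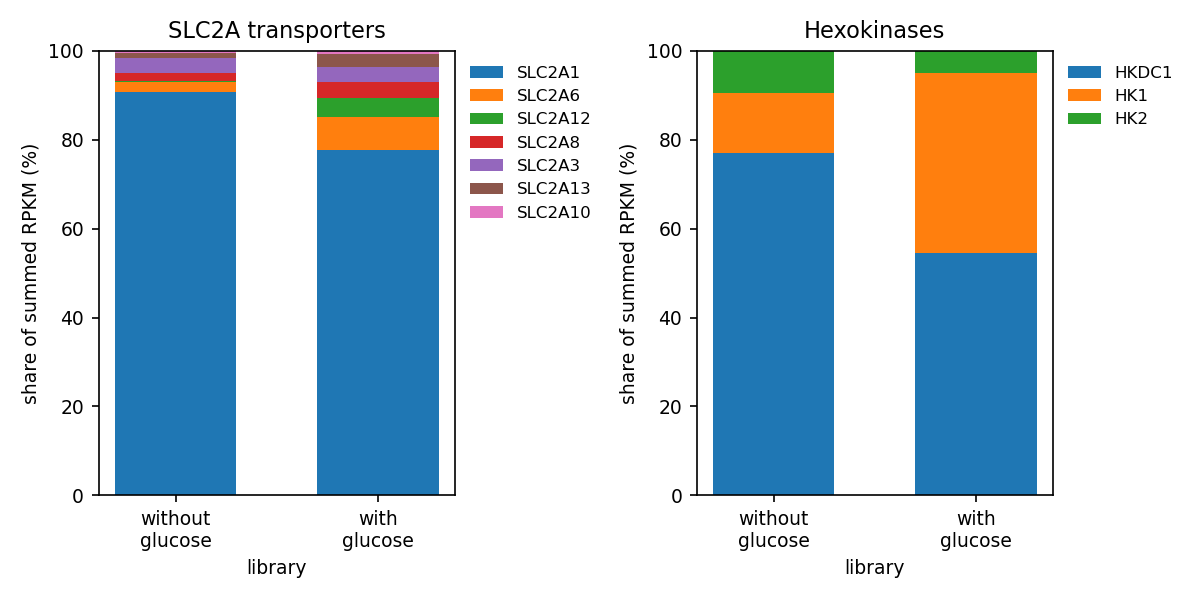
Share of each gene in the summed RPKM (y axis, percent) of the 7 transporter genes (left panel) and of the 3 hexokinase genes (right panel), for the library without glucose and the library with glucose. SLC2A1 takes 90.8% and 77.7% of the transporter sum and HKDC1 76.9% and 54.5% of the hexokinase sum, while HK1 takes 13.7% and 40.4%.

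Of the 7 other SLC2A genes, 4 were measured, 0 were higher and 1 was lower, with a median log2 ratio of -0.03. The lower one was the fructose carrier gene SLC2A5, with 9 counts without glucose and 40 with glucose, a log2 ratio of -2.29 (interval -3.52 to -1.23). SLC2A11, which encodes GLUT11, had 258 counts against 116, a log2 ratio of 1.01 whose interval of 0.69 to 1.34 crossed the 2-fold bound. The insulin-regulated carrier gene SLC2A4 was barely detected, at 9 and 15 counts, and the liver carrier gene SLC2A2 had 3 and 2 counts. Of 8 other sugar kinases 6 were measured and none passed the rule, with a median of 0.16. HK3, another hexokinase gene, had 2 counts without glucose and 1 with glucose, under the minimum. ADPGK, an ADP-dependent kinase of glucose in the endoplasmic reticulum, had 61.7 CPM without glucose and 54.5 CPM with glucose (log2 ratio 0.18, interval 0.08 to 0.28), and the galactokinase gene GALK1 had a log2 ratio of -0.87. KHK, the fructokinase gene, was at -0.88 from 9 counts without glucose and 15 with glucose (interval -2.25 to 0.41).

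Of 15 further sugar transporter genes, 8 were measured and none passed the rule (median 0.45). The sodium-glucose cotransporter genes SLC5A1 and SLC5A2 had 0 counts without glucose, and 7 and 0 counts with glucose. SLC50A1, the human SWEET carrier, had 34.8 CPM without glucose and 18.8 CPM with glucose (log2 ratio 0.89), and SLC45A3 had a log2 ratio of -1.12 (interval -1.48 to -0.77).

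All 22 genes of GLUT trafficking and turnover were measured, with 0 higher, 1 lower and a median of -0.04. The lower gene was TXNIP, an arrestin-like protein that drives GLUT1 from the cell surface into the cell, at 1.07 CPM without glucose and 13.9 CPM with glucose (log2 ratio -3.69, interval -4.25 to -3.18). Its paralog ARRDC4 had 117 counts against 89 (0.25, interval -0.16 to 0.67). The genes TBC1D4 and TBC1D1, whose products hold back GLUT4 vesicles, and VPS35, a retromer subunit that recycles GLUT1, lay within 2-fold. The 10 hexokinase partners and regulators had none past the rule and a median of -0.12. The mitochondrial porin genes VDAC1 and VDAC2, whose products dock hexokinases, had log2 ratios of -0.17 and 0.54. GCKR, known as a regulator of sugar phosphorylation in liver, had 1.05 from 16 counts against 7, with an interval (-0.31 to 2.57) that included no difference.

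Of 12 genes of the branches near glucose 6-phosphate (its direct users, the aldose reductase that takes free glucose, and the hexosamine pathway enzymes that start from fructose 6-phosphate), 10 were measured, with 0 higher and 2 lower (median -0.19). GFPT2, a hexosamine pathway enzyme, had a log2 ratio of -1.21 (interval -1.38 to -1.04), and AKR1B1, which turns glucose to sorbitol, -1.11 (interval -1.14 to -1.09). G6PC3, the widespread glucose 6-phosphatase, had 89.3 CPM without glucose and 42.0 CPM with glucose, and its log2 ratio of 1.09 (interval 0.99 to 1.19) narrowly missed the bound. GFPT1 had a log2 ratio of 0.97 (interval 0.93 to 1.01). Later glycolysis had 15 of 18 genes measured, 0 higher and 1 lower, with a median of -0.43. The lower gene was LDHA, the lactate dehydrogenase subunit that favours lactate formation, at 649.6 CPM without glucose and 1603 CPM with glucose. None of these lists held a gene past the rule on the higher side, beside 3.75% of all 14240 measured genes (6.20% were lower). With at most 22 measured genes in a list, a count of 0 higher lies near that share.

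**Figure D4:**
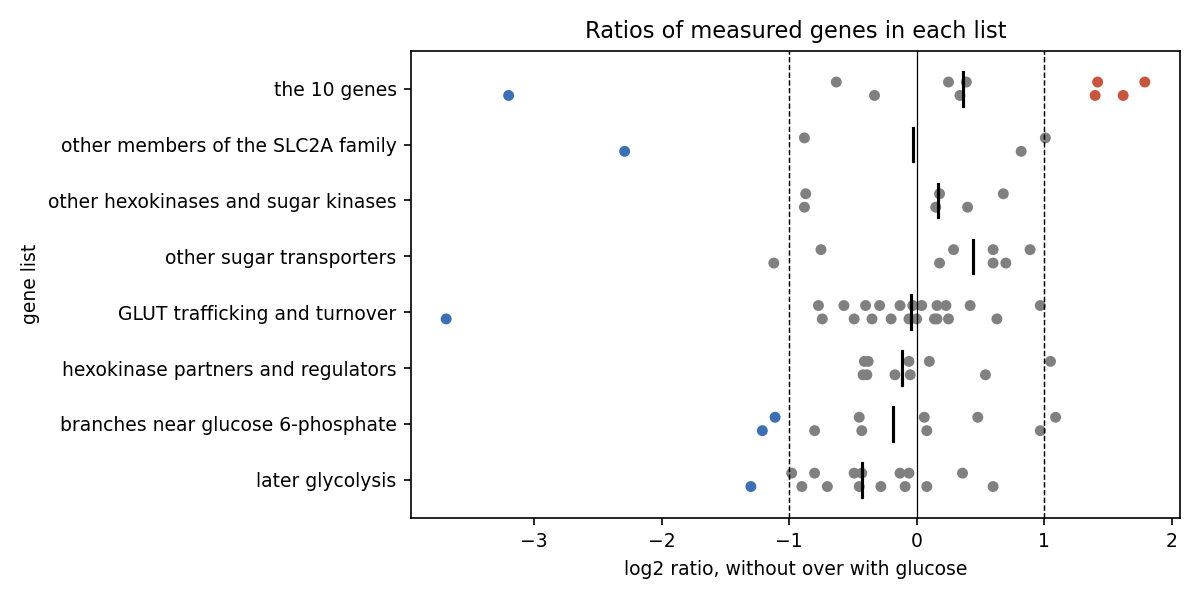
Log2 ratio, without over with glucose (x axis), of each measured gene in the 10 genes described here and in the 7 other lists (rows), with the median of each row as a black bar and dashed lines at 2-fold. Red points, higher by the rule of size, appear only in the top row (4 genes), and blue points, lower by the rule, in 5 of the 8 rows. Over all measured genes 3.75% were higher and 6.20% lower.

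Over the 5772 genes with at least 30 CPM in both libraries, those with the log2 ratio closest to that of SLC2A1 were CCPG1, CITED2 and PDIA3P, within 0.0081. Those closest to HK2 were SQSTM1, DNAJB1 and EIF1, within 0.0412. Among so many genes, close matches are bound to occur. The ratios of the named genes lay inside the counting intervals of SLC2A1 (1.59 to 1.65) and HK2 (1.68 to 1.89). This likeness rests on the ratio of 2 libraries alone. Measured genes were also split into 10 classes by length. In the classes that held the 10 genes described here, the median log2 ratio ran from 0.05 in classes 4 and 5 to -0.21 in class 10, the longest genes. A class median does not give the spread within the class, and the part of length in the ratios of these genes was not tested.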

How the data were processed

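Total RNA of 786-O cells was sequenced in 2 libraries, grouped by their titles. Each deposited table gave, per the file headers, a raw count, a gene model length and an RPKM value for 24364 rows of RefSeq gene models, on hg19 per the submitters' processing notes. Counts were deposited unnormalized, as whole numbers. The deposited RPKM values were the authors' counts per kilobase and per 1e6 reads (31.0 and 27.1 in units of 1e6 reads, without and with glucose), and served as an alternative only. The aligner, counting program and library kit, not given in the sources used here, remain unknown.

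Rows that repeated the place, length and counts of another symbol (528) were dropped, and the counts of each symbol were added up. TMM factors from edgeR 4.0.16 in R 4.3.3, over genes with at least 20 counts in both libraries together, were 0.981 without glucose and 1.02 with glucose. Intervals (scipy 1.17.1 in Python 3.11.15) were exact Clopper-Pearson for ratios and pair shares and exact Poisson for levels. Differences between log2 ratios and shares of sums had intervals by normal approximation. All cover counting error only, since 1 library per group holds no replicate spread. They may be too narrow even for that, since PCR copies are not independent molecules. The interval rule was run on simulated Poisson counts with known library sizes, the very model that the intervals assume. Spread between cultures, PCR copies and TMM scaling were not simulated, so the run does not bear on them. Symbols of 92 listed genes were all matched, by name or RefSeq accession. Named were the 10 genes, in each list those past the rule and up to 2 with the largest log2 ratio, and 3 genes closest to SLC2A1 and to HK2; others were named for their role after their values were seen. The genes and lists were chosen with earlier results of these data known. The HKDC1 shares and differences were added after seeing the data. Protein sequences were not used here, and single values of some listed genes are not reported here.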

Additional observations from a re-analysis of the deposited data

How the results depend on the processing

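No paired analysis was possible because there was a single library on either side, and for the same reason no replicate could be left out. The count of 4 higher genes and 1 lower gene among the 10 was the same with total counts, upper-quartile or relative log expression scaling, with small RNA genes left out, with the deposited RPKM values, with 1 CPM added and with a bound of 1.5-fold. With a bound of 3-fold, 2 were higher (HK2 and SLC2A1) and 1 lower. Over all measured genes, 1451 were higher and 1800 lower beyond 1.5-fold, and 200 and 306 beyond 3-fold, against 534 and 883 beyond 2-fold, as the size asked for sets these counts. Of 60 ratios recomputed for the 10 genes under 6 settings, 6 left their counting interval and 0 changed sign. SLC2A1 ranged from 1.57 to 1.66, HKDC1 from 1.36 to 1.46 and SLC2A12 from -3.27 to -2.89, the smaller size being the value with 1 CPM added. Without division by length, HK2 took 53.0% of its pair with HK1 without glucose and 17.4% with glucose, and SLC2A3 took 3.73% of its pair with SLC2A1 without glucose. The median of the further sugar transporters was 0.45 over genes with at least 20 counts, and 0.02 with genes of at least 1 count, so it depended on this minimum. Depth limited SLC2A10 most among the 10 genes, and the other SLC2A genes with under 50 counts more.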
